A study of Mus musculus with 6 samples.

Results

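The genes described here encode 8 proteins that bind AU-rich elements: Zfp36, Zfp36l1, Zfp36l2, Khsrp, Hnrnpd, Elavl1, Tia1 and Tial1. They were taken by symbol from the 56262 genes of the count table, and all 8 were among the 17120 genes with enough counts to be tested. RNA from the lungs of 3 R/R mice and of 3 WT littermates was read in pairs of 150 bp. The R/R genotype is RBM47 K329R;K332R on both alleles, a knock-in on the C57BL/6 background that changes lysines of the RNA-binding protein RBM47 to arginine, and WT mice carry neither change. All mice were 8 weeks of age and had no treatment. The only comparison in these data is R/R against WT, in whole lung. In bulk tissue, fewer cells of a type and less RNA per cell cannot be told apart.

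AU-rich elements are stretches of A and U, often with overlapping AUUUA pentamers, in the 3′ untranslated regions (3′ UTRs) of many short-lived mRNAs, among them those of cytokines, growth regulators and immediate early genes. The Zfp36 family proteins and KSRP (Khsrp) bind such elements and bring in the enzymes that remove the poly(A) tail and degrade the mRNA, whereas HuR (Elavl1) binds many of the same elements and stabilizes the mRNA. AUF1 (Hnrnpd) can act in either direction, and TIA-1 and TIAR (Tia1, Tial1) mainly hold back translation and collect in stress granules. Several of these proteins, tristetraprolin (Zfp36) and HuR among them, are known to bind their own mRNA.

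The motif that tristetraprolin recognises best is the nonamer TTATTTATT (U is written as T). It contains the heptamer TATTTAT, which contains the pentamer ATTTA, so the counts of these motifs overlap. Motifs were counted on the mRNA strand only, in the 3′ UTR of the transcript with the longest coding sequence in the GENCODE M21 annotation of GRCm38. A nonamer was present in the 3′ UTR of 6.97% of the 14195 tested coding genes with a 3′ UTR, a heptamer in 27.1% and a pentamer in 65.1%. Such a match is a description of the letters and was not taken as a bound site. For the 8 genes, the sites nearest to the stop codon are shown, each in 30 bases, with the longest motif found in capitals, to show which AU-rich letters the mRNAs of these proteins themselves carry:

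Zfp36, chr7:28376950-28376979, minus strand: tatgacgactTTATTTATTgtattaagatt
Zfp36l1, chr12:80108166-80108195, minus strand: aactgttggaTTATTTATTttagaaattct
Zfp36l2, chr17:84184913-84184942, minus strand: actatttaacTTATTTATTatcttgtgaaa
Elavl1, chr8:4285787-4285816, minus strand: gtcatgaaaaTTATTTATTtatttatttat
Tia1, chr6:86430467-86430496, plus strand: cagatacaatgTATTTATttaaaagattca
Tial1, chr7:128442422-128442451, minus strand: gaaaatgaaaaTATTTATtttaaaaattga
Khsrp, chr17:57021585-57021614, minus strand: aaaatagcaagaATTTAacctctgccccgc
Hnrnpd, chr5:99960566-99960595, minus strand: ggaaatctattaATTTAaatagaactgcag

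The 3 Zfp36 family genes each held 1 nonamer. Elavl1 held 8 overlapping nonamers in a 3′ UTR of 4218 bases, and the window shown is the start of a longer run of the repeat. Tia1 and Tial1 held no nonamer and 1 heptamer each. Khsrp held 1 pentamer and Hnrnpd held 10 pentamers, with no longer motif in either.

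Each lung gave between 16501092 and 18141067 pairs counted on genes. Wherever 3 values are given for a genotype, they are in the order of replicates 1, 2 and 3. Levels are given as CPM, which are counts scaled to the size of each library, after TMM scaling, and R/R lungs were compared with WT lungs by the edgeR quasi-likelihood test with Benjamini-Hochberg adjustment, at an adjusted p of 0.05. The edited gene, Rbm47, had levels of 32.7, 33.5 and 34.1 CPM in the R/R lungs and 28.8, 30.5 and 34.4 CPM in the WT lungs. Its groups overlapped, with a log2 fold change of 0.10 (SE 0.08, adjusted p = 0.660 by edgeR), and gene counts do not show the edited codons. The labelled tissue was checked against its markers, and the summed level of 5 alveolar type 2 markers (Sftpc, Sftpb, Sftpa1, Lamp3 and Abca3) was between 16928 and 22738 CPM. Of the other cell types whose markers were examined, B cell markers were lower in R/R lungs (3 of 3 genes called, summed 42.5 to 57.2 CPM against 85.5 to 107 CPM in WT). Of 3 alveolar macrophage markers 1 was called, higher in R/R lungs (Chil3), and their sum was 610 to 699 CPM in R/R against 364 to 516 CPM in WT. T cell markers summed to 16.6 to 21.8 CPM against 23.0 to 31.1 CPM, and neutrophil markers to 54.0 to 81.6 CPM against 54.0 to 162 CPM, with no gene of either list called. The part of these cell types in the values of the 8 genes was not tested.

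None of the 8 genes passed an adjusted p of 0.05 by edgeR, where 1.75% of all tested genes did. At an unadjusted p of 0.05, Zfp36 and Elavl1 were higher and Tia1 was lower in R/R lungs, which is 3 of 8 genes beside 14.2% of all tested genes. All R/R lungs lay above all WT lungs for Zfp36, Elavl1 and Hnrnpd (9.17% of tested genes did so), and all R/R lungs lay below all WT lungs for Tia1 (9.5% of tested genes). For Hnrnpd and Tia1 this was not kept when library sizes were used without TMM scaling. The median log2 fold change over the 8 genes was 0.04, beside 0.00 over all tested genes. DESeq2 and the exact test of edgeR each called 1 of the 8 genes, Zfp36, and limma-voom called 0. Of all 17120 tested genes, these called 541, 630 and 251.

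**Figure D1:**
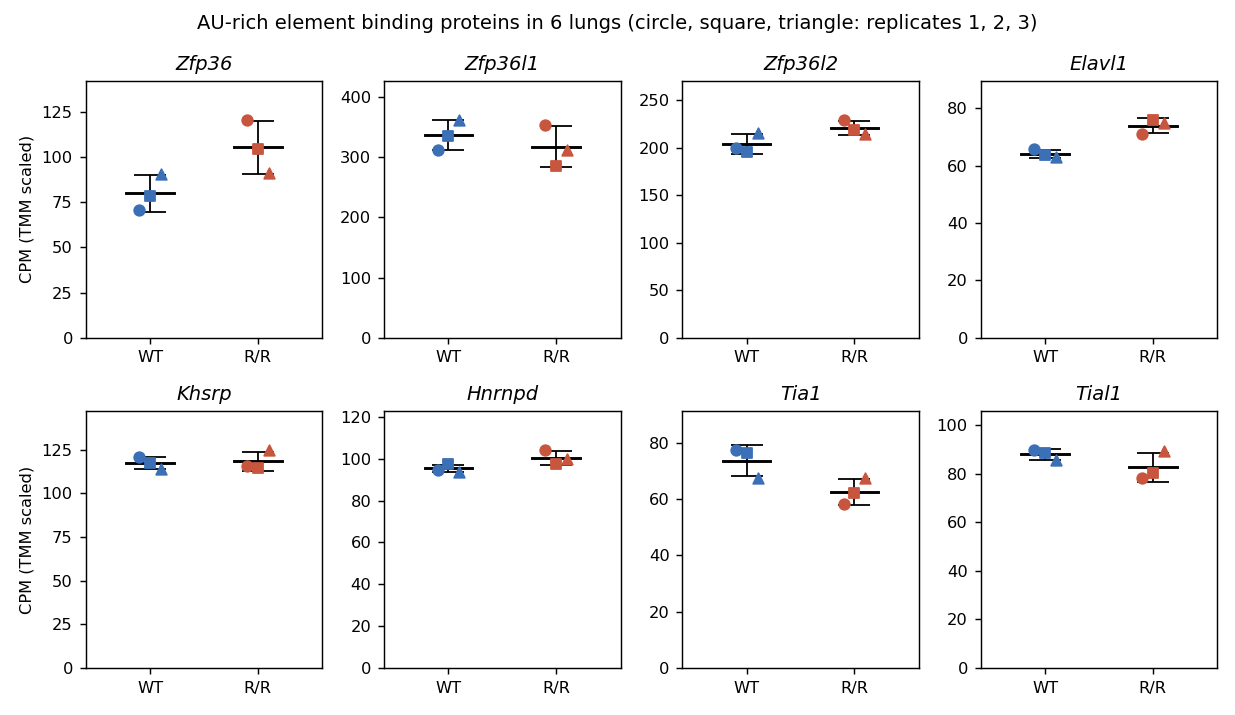
Level of each of the 8 genes in CPM after TMM scaling (vertical axes, from 0) in WT and R/R lungs. Circles, squares and triangles are replicates 1, 2 and 3, and the black bars are the mean and SD of 3 lungs. For Zfp36 and Tia1 the triangles of both genotypes lie at nearly the same height, and the Elavl1 groups are the most clearly apart.

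Zfp36 (ENSMUSG00000044786.6, chromosome 7, 28376784 to 28380253, minus strand) encodes tristetraprolin, which recruits the CCR4-NOT deadenylase to AU-rich mRNAs and is itself an immediate early gene. Its level was 120 CPM, 105 CPM and 91.2 CPM in the R/R lungs, and 70.6, 78.5 and 90.6 CPM in the WT lungs. The means were 105 ± 14.6 CPM in R/R and 79.9 ± 10.1 CPM in WT (SD, n = 3 each). R/R replicate 1 was the highest and WT replicate 1 the lowest lung, and the closest lungs of the 2 genotypes, both replicate 3, had 1549 and 1548 read pairs, a gap within counting error. The log2 fold change was 0.40 (SE 0.11, 95% interval 0.17 to 0.63), a fold of 1.32, with an adjusted p of 0.0912 by edgeR. An exact two-sided permutation test of log2 CPM gave p = 0.1, the smallest value possible with 3 lungs against 3. The call depended on the test and on a single lung: the adjusted p was 0.0113 by DESeq2 and 0.0209 by edgeR without WT replicate 3, where the log2 fold change was 0.50. With any single lung left out, the log2 fold change was at least 0.29, and the adjusted p reached 0.323. The order of the 6 lungs by Zfp36 was also their order by the summed alveolar type 2 markers, which stood at 22738, 22230 and 21523 CPM in the R/R lungs, against 16928, 18549 and 20982 CPM in the WT lungs. Sftpc had the most read pairs of the 5 markers, and the single markers did not all follow this order. Lamp3 had its most read pairs in WT replicate 3 (8730, against 7935 to 8524 in the R/R lungs). All 5 markers had log2 fold changes above 0 (0.05 to 0.27, median 0.21). By edgeR 3 of them had an unadjusted p under 0.05, beside 6.54% of all tested genes that were higher. In 1 of the 5 markers all R/R lungs lay above all WT lungs, beside 9.17% of all tested genes. No gene of that marker list was called, and its part in the difference was not tested.

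Zfp36l1 (ENSMUSG00000021127.7, chromosome 12, 80107754 to 80113013, minus strand) encodes a second protein of this family, with similar zinc fingers and mode of action. It was measured at 353, 286 and 312 CPM in the R/R lungs, and the WT lungs had 312, 336 and 362 CPM. Each group spanned most of the other, and the log2 fold change was -0.08 (SE 0.08, 95% interval -0.27 to 0.10, adjusted p = 0.718 by edgeR). Zfp36l2 (ENSMUSG00000045817.8, chromosome 17, 84183931 to 84187947, minus strand), the family member known for its part in lymphocyte and blood cell development, was at 229, 219 and 215 CPM in the R/R lungs, and the WT lungs had 200 CPM, 195 CPM and 215 CPM. R/R replicate 3 and WT replicate 3 met at the same level, so the groups overlapped. Its log2 fold change was 0.12 (SE 0.06, 95% interval -0.01 to 0.25, adjusted p = 0.414 by edgeR).

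Within each lung, the makeup of the Zfp36 family was compared per kilobase of merged exons. The Zfp36 share of the summed level of the 3 genes was 15.9%, 16.1% and 13.7% in the R/R lungs, and 11.2%, 11.9% and 12.6% in the WT lungs. Every R/R lung was above every WT lung in this share. The ratio of Zfp36 to Zfp36l1 was 0.252 to 0.315 in R/R lungs and 0.195 to 0.216 in WT lungs, again without overlap. The summed level of the family overlapped between genotypes, at 188 to 218 CPM per kilobase in R/R and 181 to 208 CPM per kilobase in WT. No test was made on these ratios, which were chosen with the values of the genes known.

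Khsrp (ENSMUSG00000007670.10, chromosome 17, 57021051 to 57031522, minus strand) encodes KSRP, a KH-domain protein that recruits the exosome and also takes part in microRNA maturation. It was at 116, 115 and 125 CPM in the R/R lungs, and the WT lungs had 121, 117 and 114 CPM. The groups covered nearly the same range, and the log2 fold change of 0.01 had a 95% interval from -0.11 to 0.14 (adjusted p = 0.959 by edgeR). Hnrnpd (ENSMUSG00000000568.15, chromosome 5, 99955935 to 99978938, minus strand) encodes AUF1, which can destabilize or stabilize its targets. Its level was 104 CPM, 97.6 CPM and 99.8 CPM in the R/R lungs, against 94.9, 97.5 and 93.9 CPM in the WT lungs. Every R/R lung was above every WT lung, but R/R replicate 2 and WT replicate 2 differed by only 0.040 CPM, far less than their counting error. Their order turned when library sizes were used without TMM scaling (13.14 CPM per kilobase in R/R replicate 2 against 13.27 in WT replicate 2). The log2 fold change of Hnrnpd was 0.07 (SE 0.06, 95% interval -0.05 to 0.20, adjusted p = 0.618 by edgeR).

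Elavl1 (ENSMUSG00000040028.10, chromosome 8, 4285382 to 4325413, minus strand) encodes HuR, the stabilizing protein of the set. It was at 70.9, 75.9 and 74.8 CPM in the R/R lungs, and the WT lungs had 65.8, 63.7 and 63.1 CPM. The lowest R/R lung stood 5.15 CPM above the highest WT lung, and the spread within each genotype was small, with means of 73.9 ± 2.60 CPM and 64.2 ± 1.39 CPM (SD, n = 3 each). The log2 fold change was 0.20 (SE 0.06, 95% interval 0.07 to 0.33). This gave an unadjusted p of 0.00505 and an adjusted p of 0.126 by edgeR, and no alternative setting or left-out lung brought the adjusted p under 0.05 (0.109 to 0.327).

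Tia1 (ENSMUSG00000071337.11, chromosome 6, 86404219 to 86433405, plus strand) encodes TIA-1, which represses translation of AU-rich mRNAs, nucleates stress granules and also acts in splicing. Its level was 58.2, 62.3 and 67.4 CPM in the R/R lungs, against 77.4, 76.3 and 67.6 CPM in the WT lungs. The genotypes were apart by 0.236 CPM, between R/R replicate 3 and WT replicate 3, and their order there turned when library sizes were used without TMM scaling (4.33 CPM per kilobase in R/R replicate 3 against 4.29 in WT replicate 3). The log2 fold change was -0.24 (SE 0.08, 95% interval -0.40 to -0.07), with an unadjusted p of 0.00849 and an adjusted p of 0.160 by edgeR. Over the alternatives and left-out lungs the adjusted p of Tia1 was 0.0515 to 0.430. Tial1 (ENSMUSG00000030846.15, chromosome 7, 128439777 to 128461717, minus strand) encodes the close relative TIAR. It was at 78.2, 80.2 and 89.4 CPM in the R/R lungs, and the WT lungs had 89.6, 88.6 and 85.5 CPM. R/R replicates 1 and 2 were below all WT lungs and R/R replicate 3 was among them. The log2 fold change of Tial1 was -0.09 (SE 0.06, 95% interval -0.23 to 0.05, adjusted p = 0.597 by edgeR).

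**Figure D2:**
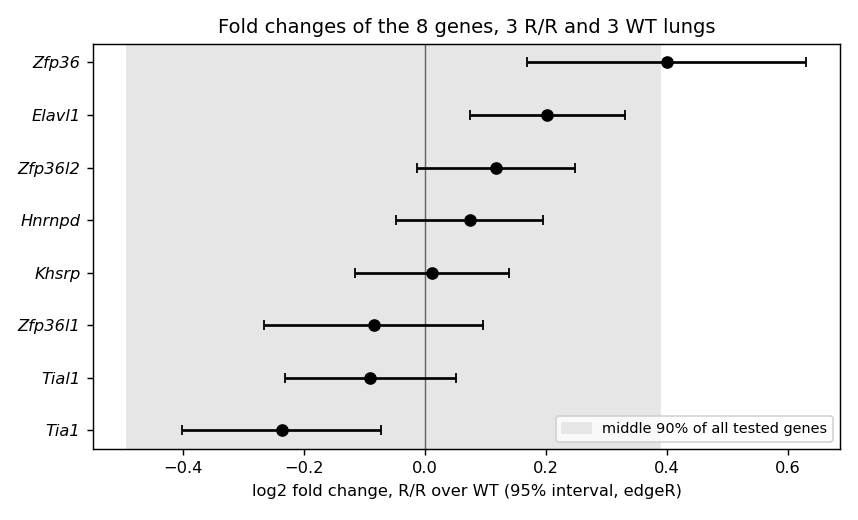
Log2 fold change of R/R over WT (horizontal axis) for the 8 genes, with 95% intervals from the edgeR fit of 3 against 3 lungs. The grey band holds the middle 90% of all tested genes, from -0.49 to 0.39. Intervals of Zfp36, Elavl1 and Tia1 do not reach 0, and only the estimate for Zfp36, at 0.40, lies outside the band.

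The spread between lungs also differed among the 8 genes. In WT lungs the coefficient of variation was 12.6% for Zfp36 and 2.17% for Elavl1, and in R/R lungs it was 13.9% and 3.52%. The common biological coefficient of variation over all genes in the fit was 8.62%. That value leaves out counting error, which the values of single genes include, so the measures are not alike. The WT lungs of Elavl1 differed by no more than counting error. The SE of the Zfp36 fold change was the largest of the 8.

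The stabilizing HuR and the silencing TIA-1 were then set against each other within each lung. The ratio of Elavl1 to Tia1, each per kilobase of merged exons, was 1.85, 1.85 and 1.69 in the R/R lungs and 1.29, 1.27 and 1.42 in the WT lungs. The genotypes did not overlap in this ratio, which adds nothing to the single genes, as after TMM scaling neither gene overlapped. The size of this ratio depends on the lengths used. Per kilobase of the longest coding transcript, Tia1 stood above Elavl1, with means of 15.2 and 12.0 CPM over the 6 lungs. The ratio of Zfp36 to Elavl1, a destabilizing against a stabilizing protein, was 3.64 to 5.07 in R/R and 3.21 to 4.29 in WT, and its groups overlapped. These ratios were chosen with the values of the genes known, and no test was made on them.

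Levels of different genes can be compared only per length. Per kilobase of merged exons, Zfp36l1 was the highest, with a mean of 109 CPM per kilobase over the 6 lungs (95.6 to 121), followed by Zfp36l2 at 60.1 (55.4 to 64.9). Khsrp at 27.3 and Zfp36 at 26.7 CPM per kilobase came next and overlapped. Hnrnpd at 13.3 and Tial1 at 12.4 CPM per kilobase also overlapped, and Elavl1 at 6.66 and Tia1 at 4.33 CPM per kilobase were the lowest. All other neighbours in this order were apart in all 6 lungs. The order of the lower genes depended on the length used, an alternative added after the data were seen. Tia1 has 15750 bases of merged exons but 4477 bases in its longest coding transcript, and per kilobase of that transcript it stood at 15.2 CPM, above Hnrnpd at 14.4 and Elavl1 at 12.0, with lungs that overlapped those of both. The lead of Zfp36l1 and Zfp36l2 was the same with either length.

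**Figure D3:**
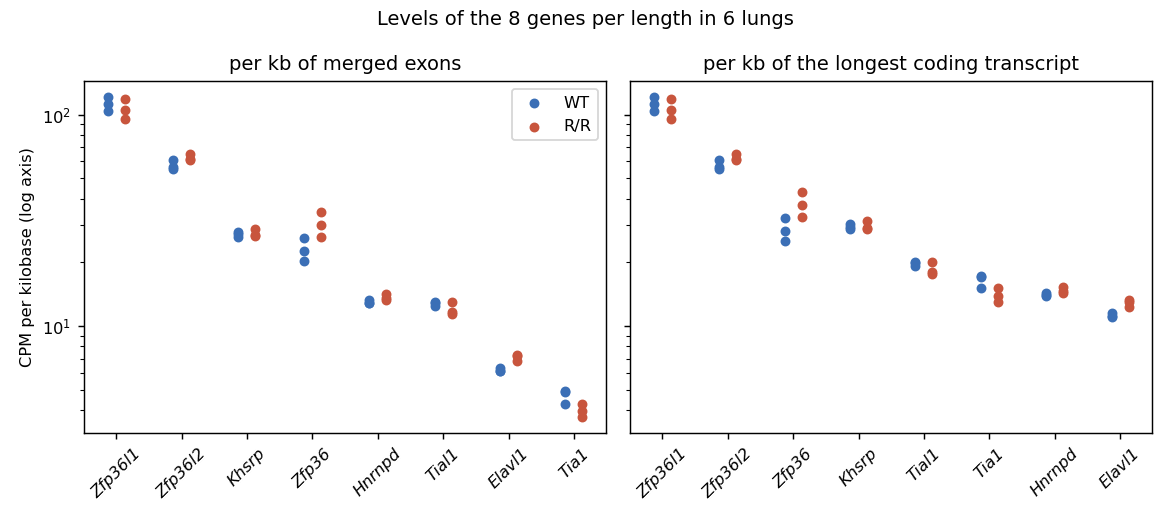
Level of the 8 genes in CPM per kilobase (log axis), with 1 point per lung, WT in blue and R/R in red. The left panel divides by merged exons and the right panel by the longest coding transcript, and genes are in order of their mean over 6 lungs. Zfp36l1 and Zfp36l2 lead in both panels, whereas Tia1 is last on the left and sixth on the right.

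For the 3 Zfp36 family genes, the genes with the most similar pattern over the 6 lungs were found among those with a mean of at least 10 CPM. Likeness was the root mean square difference of mean-centred log2 CPM. For Zfp36, whose own deviation was 0.25, the nearest were Ankrd63, Pamr1, Glb1l2, Nr1d1 (a repressor in the circadian clock) and Akr1b8, at differences of 0.061 to 0.071. Nr1d1 stood at 323, 280 and 261 CPM in the R/R lungs, and the WT lungs had 217, 226 and 247 CPM, with the same order of lungs as Zfp36. For Zfp36l1, whose deviation was 0.12, the nearest were Lig3, Hdhd2, Bace2, Uckl1 and Unk (0.038 to 0.049). Eif3l, Bud23, Fam117b, Slc38a10 and C1s1 were nearest to Zfp36l2, at 0.013 to 0.020 beside its own deviation of 0.078. With 6 lungs and 17120 tested genes, such likeness is a description only.

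Other proteins that bind AU-rich or U-rich elements were examined next. Of 15 listed, 11 were tested, and the neuronal Elavl2, Elavl3 and Elavl4 as well as Zfp36l3 had too few counts. None was called by edgeR, 3 had fold changes above 0 and 8 below 0, and the median log2 fold change was -0.02. Hnrnpc, a binder of U-rich stretches, had the smallest p (log2 fold change -0.16, unadjusted p = 0.0269, adjusted p = 0.269) and was the only one with an unadjusted p under 0.05. The Hnrnpd paralog Hnrnpdl was at 0.07 (adjusted p = 0.738) and Hnrnpa2b1 at -0.06 (adjusted p = 0.741). Regnase and Roquin proteins, which act on stem-loops of many of the same mRNAs, were tested with their partners as 8 genes. By edgeR 0 were called, the median was 0.05, and 2 had an unadjusted p under 0.05, beside 14.2% of all tested genes. These were Zc3h12a at 0.23 (adjusted p = 0.288) and Zc3h12c at 0.17 (adjusted p = 0.323), while Zc3h12d, at 4.83 to 8.69 CPM in the 6 lungs, was at -0.38 (adjusted p = 0.40).

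The enzymes that act downstream of these proteins showed no gene called by edgeR. Among 19 deadenylation genes, 12 had fold changes above 0 and 7 below, and the median was 0.02. At an unadjusted p under 0.05, 3 were higher (6.54% of all tested genes) and 1 was lower (7.68%). The 3 higher genes were adaptors that bring the deadenylase to mRNAs. The lower gene was Cnot7, of the deadenylase itself, at -0.15 (adjusted p = 0.301), with all R/R lungs below all WT lungs. Of the other listed adaptors, Btg1 was at -0.10 and Btg3 at 0.16, and their groups overlapped. Btg2 was at 148, 162 and 148 CPM in the R/R lungs, and the WT lungs had 120, 129 and 131 CPM, without overlap (log2 fold change 0.27, adjusted p = 0.0537). Tob1 was at 0.36 (adjusted p = 0.0995) and Tob2 at 0.22 (adjusted p = 0.161), and for both all R/R lungs were above all WT lungs. DESeq2 called Btg2 and Tob1 at adjusted p-values of 0.0134 and 0.0295. With edgeR both were called without WT replicate 3 (0.0389 and 0.0170) but not with any other lung left out, where the adjusted p reached 0.220 and 0.327. Btg2 also stands in the list of immediate early genes below.

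Of 18 decapping and 5′-to-3′ decay genes, 1 had an unadjusted p under 0.05, beside 14.2% of all tested genes. This was Patl1 at 0.16 (adjusted p = 0.283), and the list median was 0.03. Lsm3, of the ring that binds the ends of shortened mRNAs, was at 0.26 (adjusted p = 0.417), and the decapping enzyme Dcp2 at -0.11 (adjusted p = 0.453). Of 17 exosome and cofactor genes 16 were tested, none had an unadjusted p under 0.05 and the median was 0.02. The exosome subunits Exosc5 and Exosc7 were at 0.19 and 0.18 (adjusted p = 0.374 and 0.384), and the helicase Skiv2l at -0.08 (adjusted p = 0.701). Of 25 stress granule and eIF2 alpha kinase or phosphatase genes, Ppp1r15a, the stress-induced phosphatase subunit, had the only unadjusted p under 0.05, with a log2 fold change of 0.26 (adjusted p = 0.140). Ewsr1, another RNA-binding protein, was at -0.10 (adjusted p = 0.462), and the list median was 0.00.

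The p38-MK2 pathway phosphorylates tristetraprolin, which keeps the protein from recruiting the deadenylase. Of its 20 listed kinases, adaptors and phosphatases, 0 were called by edgeR, and the median was 0.01. At an unadjusted p under 0.05, 3 were higher (6.54% of all tested genes) and 1 was lower (7.68%). Dusp1, the phosphatase that switches p38 off, was at 219, 272 and 221 CPM in the R/R lungs, and the WT lungs had 116, 161 and 188 CPM. All R/R lungs were above all WT lungs, with a log2 fold change of 0.62 (SE 0.14, adjusted p = 0.0573). It was called without WT replicate 3 (adjusted p = 0.00668) but with no other lung left out, where the log2 fold change fell to as little as 0.44 and the adjusted p reached 0.230, and DESeq2 gave an adjusted p of 0.114. Dusp1 mRNA is itself a known target of tristetraprolin. The kinases Mapk13, a p38 form, and Mapkapk3, a relative of MK2, were at 0.30 and 0.18 (adjusted p = 0.328 and 0.334).

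Known AU-rich mRNAs, the targets of these proteins, were then examined. For Vegfa, which is on the list, the transcript used for motif counting had a 3′ UTR of 315 bases with 0 pentamers. Of 36 listed genes 28 were tested, whereas Il6, Il2, Il10, Il23a, Ifng, Cxcl2, Ccl2 and Ccl4 had too few counts in these untreated lungs. Of the 28, 20 had fold changes above 0 and 8 below, with a median log2 fold change of 0.10. By edgeR 3 were called higher, Dll4 and Ptgs2 among them, and none was called lower, beside 0.648% of all tested genes called higher and 1.1% called lower. At an unadjusted p under 0.05, 9 were higher (6.54% of all tested genes) and 1 was lower (7.68%), and in 9 all R/R lungs were above all WT lungs (9.17%). For Dll4 and Ptgs2 the first site of the longest motif in each 3′ UTR is shown, to set beside those of the 8 genes above:

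Ptgs2, chr1:150105790-150105819, plus strand: ctgaccatatTTATTTATTtatgtgaagaa
Dll4, chr2:119335618-119335647, plus strand: tatataatgtgTATTTATaatatgaaacag

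Ptgs2, the inducible cyclooxygenase, held 1 nonamer 18 bases after the stop codon and 14 pentamers. It was at 14.4, 22.0 and 21.3 CPM in the R/R lungs, and the WT lungs had 7.77, 10.3 and 12.8 CPM. All R/R lungs were above all WT lungs, and the log2 fold change was 0.90 (SE 0.19, adjusted p = 0.0390 by edgeR). Dll4, a Notch ligand of endothelium, had 1 heptamer and was at 179.5, 150.4 and 175 CPM in the R/R lungs, against 126, 136 and 124 CPM in the WT lungs (log2 fold change 0.39, SE 0.07, adjusted p = 0.0297). Both lost their call when single lungs were left out, with adjusted p-values up to 0.117 for Dll4 and 0.163 for Ptgs2. Tnf, the best known tristetraprolin target, was low, at 0.468 to 1.46 CPM, and had a log2 fold change of -0.45 (SE 0.44, 95% interval -1.41 to 0.51, adjusted p = 0.722), and no change in it was detected.

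Immediate early genes are transcribed within minutes of a stimulus, and Zfp36 itself is one of them. Of the tested AU-rich mRNAs, Fos, Jun, Ier3 and Dusp1 were also in the list of immediate early genes used here. That list is not complete, so other AU-rich mRNAs may be immediate early genes as well. The immediate early list held 22 genes, Zfp36 not among them, and all were tested. A fold change above 0 was found for 19 and below 0 for 3, with a median log2 fold change of 0.38. At an unadjusted p under 0.05, 14 were higher, beside 6.54% of all tested genes, and 1 was lower, beside 7.68%. In 11 of 22 all R/R lungs were above all WT lungs, beside 9.17% of all tested genes, and in 1, Ier5, all were below, beside 9.5%. By edgeR 2 of the 22, Ccn1 and Nr4a1, were called, both higher, beside 0.648% of all tested genes. DESeq2 called 4 of the 22, beside 541 of all 17120 tested genes.

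Ccn1, a secreted matrix protein, was at 189, 195 and 170.5 CPM in the R/R lungs, and the WT lungs had 75.4, 90.1 and 108 CPM (log2 fold change 1.02, SE 0.11, adjusted p = 0.00193). Its call was kept without any single lung. Nr4a1, an orphan nuclear receptor, was at 58.9, 90.5 and 74.2 CPM in the R/R lungs, and the WT lungs had 41.4, 44.4 and 45.8 CPM (log2 fold change 0.76, SE 0.12, adjusted p = 0.0148), and lost its call without WT replicate 1 (adjusted p = 0.0669). Fos, a subunit of AP-1 and a known tristetraprolin target, was at 49.7, 35.8 and 32.4 CPM in the R/R lungs, and the WT lungs had 9.60, 14.02 and 28.2 CPM. Fos was named after its values were seen; its order of lungs was that of Zfp36, and its log2 fold change of 1.19 (SE 0.29) had an adjusted p of 0.0683 by edgeR. The summed level of the list was 2407, 2968 and 2658 CPM in the R/R lungs and 2065, 2194 and 2166 CPM in the WT lungs, without overlap. The highest sum was in R/R replicate 2, while Zfp36 was highest in R/R replicate 1.

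Glucocorticoids are known to induce tristetraprolin and Dusp1, so genes that respond to them were set beside the 8. Of 14 listed genes 13 were tested and 0 were called by edgeR. The median log2 fold change was 0.19, beside 0.00 over all tested genes. At an unadjusted p under 0.05, 4 were higher (6.54% of all tested genes) and 1 was lower (7.68%). Dusp1, described above, Errfi1 at 0.59 (adjusted p = 0.151) and Mt1 at 0.35 (adjusted p = 0.159) had the smallest p. Errfi1 was at 122, 243 and 180 CPM in the R/R lungs, and its log2 fold change was 0.32 without R/R replicate 2 (adjusted p = 0.415) and 0.81 without R/R replicate 1 (adjusted p = 0.00950, a call). Mt1 was called only without WT replicate 3 among the lungs left out (0.50, adjusted p = 0.0125). The summed level overlapped between genotypes (1054 to 1507 CPM in R/R, 952 to 1108 CPM in WT) and was highest in R/R replicate 2.

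**Figure D4:**
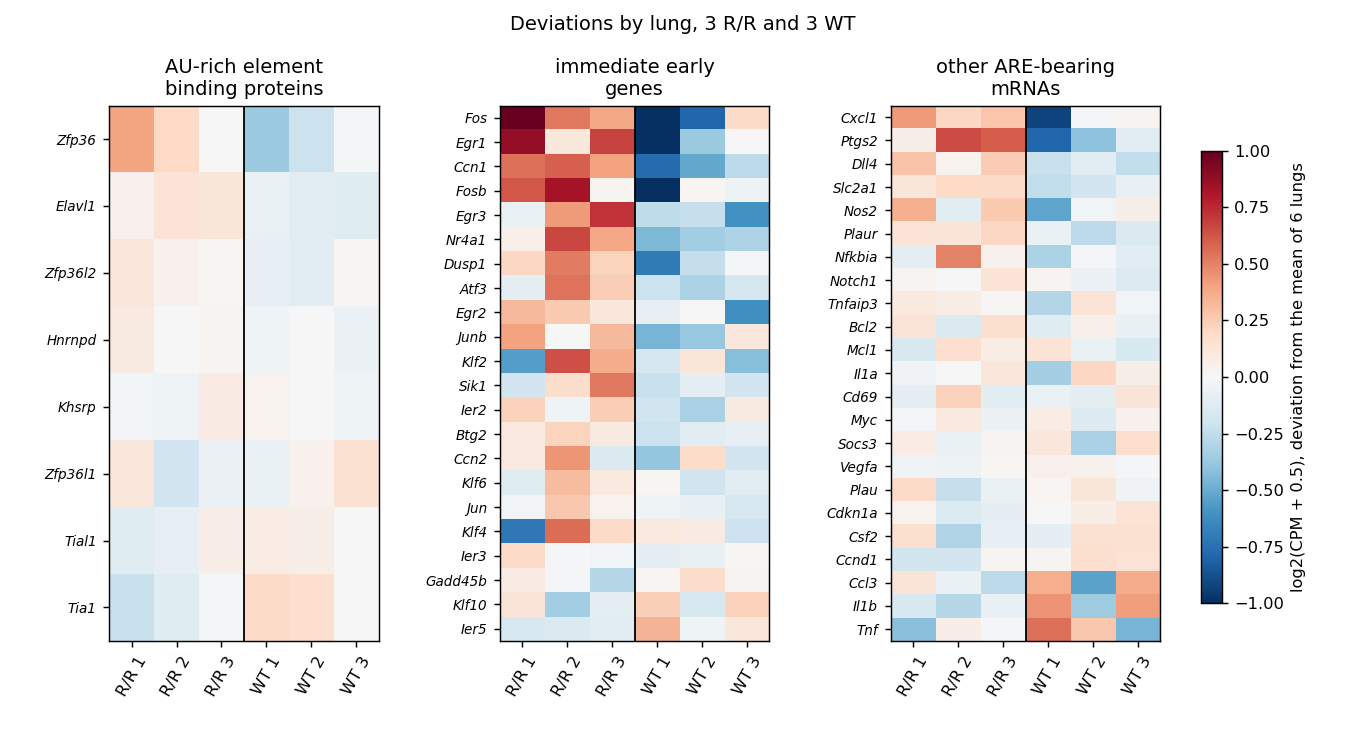
Deviation of log2(CPM + 0.5) from the mean of the 6 lungs, in colour from -1 (blue) to 1 (red). Shown are the 8 genes, the 22 listed immediate early genes and 23 of the 24 other tested genes of the AU-rich list. Columns are lungs, with a line between R/R and WT, and rows are in order of fold change. Among the 8 genes Zfp36 has the strongest colours, palest in replicate 3 of both genotypes, and the upper immediate early genes are mostly red in R/R lungs.

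The comparison was then widened from listed targets to all genes by their 3′ UTR letters. Of the 14195 coding genes, 989 held at least 1 nonamer. Their median log2 fold change was 0.01, as was that of the 13206 genes without one, and 52.1% against 52.9% had a fold change above 0. The share called by edgeR was 1.92% with a nonamer (10 higher, 9 lower) and 1.95% without. Genes with a nonamer had longer 3′ UTRs (median 2139 against 892 bases). Among genes with a 3′ UTR of at least 1000 bases, the medians were 0.01 with a nonamer and 0.00 without. Each gene was placed by a single transcript, so a gene with a nonamer only in other transcripts stands among those without one.

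**Figure D5:**
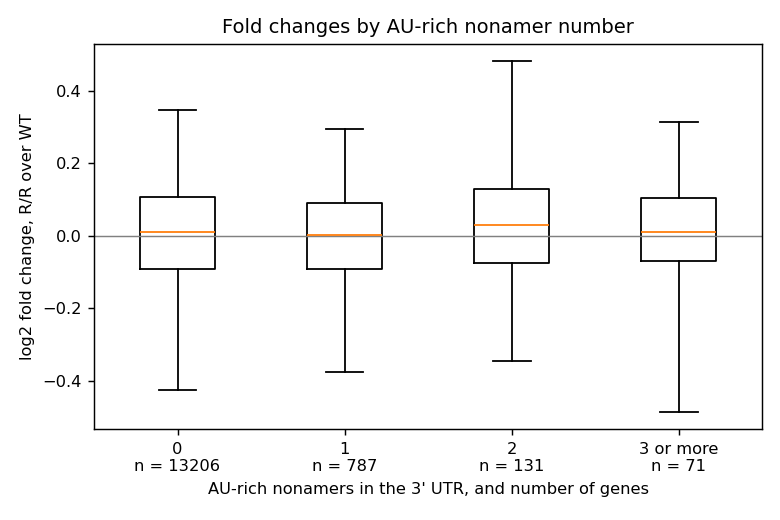
Log2 fold change of R/R over WT for tested coding genes grouped by the number of nonamers in the 3′ UTR. Boxes give the median and quartiles over genes and whiskers the 5th and 95th percentiles. All 4 medians lie between 0.00 and 0.03, for 13206, 787, 131 and 71 genes.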

How the data were processed

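The libraries came from 3 lungs of each genotype and, per the supplement, were stranded. The authors aligned the reads with HISAT2 2.1.0 to mm10 (GRCm38) and deposited, without normalization, the raw count of fragments on each gene from featureCounts 2.0.1 with GENCODE M25 (the supplement names another version). Counting used no strand, and pairs on several genes were not counted. Exons of other genes overlap 1.46% to 6.32% of the exon bases of Zfp36, Zfp36l2, Elavl1, Khsrp, Hnrnpd and Tia1, so these counts are slightly uncertain. The labels name DESeq2 and RNeasy columns, the supplement edgeR and Trizol.

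Symbols and transcripts came from GENCODE M21, which matched 55141 of 56262 identifiers. Genes were kept by filterByExpr (minimum count 10, total 15), TMM scaled and compared with glmQLFTest in edgeR 4.0.16 (R 4.3.3) without covariates. SEs were obtained from the fold change and the F statistic. The method was also run on simulated counts with known fold changes, and the share recovered is not given here. Chi-square per degree of freedom between replicates was 5.22 to 8.31, so no library was a repeat. With 3 lungs per genotype, the edgeR p-values set the genotype difference against the spread between lungs, estimated with information from all genes. Intervals from counts cover counting error only.

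Named genes were the 8 genes, Rbm47, up to 5 called genes per list (filled to 3 by unadjusted p) and the 5 nearest patterns of the Zfp36 family. Of the genes this rule names, 2 are not reported here, though the counts include them. Fos, Tnf, Ier5, Cnot7, Btg1 and Btg3 were added after their values were seen. The 8 genes, the lists and the rule were chosen with earlier results of these data known. Marker lists with no result in the text were alveolar type 1, club and ciliated, endothelium and fibroblast (0 genes called), cardiac muscle, erythroid and skeletal muscle (0 called), and thymocyte and adipocyte (none tested). Alternatives were DESeq2 1.42.0, the edgeR exact test, limma-voom (limma 3.58.1), no TMM, RLE factors, other filters, the replicate number as a block and each lung left out.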

Additional observations from a re-analysis of the deposited data

How the results depend on the processing

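Zfp36 (log2 fold change 0.40, adjusted p = 0.0912) was called under DESeq2 (0.40), the edgeR exact test (0.40), no filter beyond 1 count in total (0.41, adjusted p = 3.00e-06) and without WT replicate 3, and 0.29 to 0.50 was its range over single lungs left out. It was then the 1 gene of the 8 called, against 0 otherwise (0 to 1 over lungs left out). The p-values without the filter cannot be read beside the others. There Errfi1, whose groups overlapped, had an adjusted p of 4.63e-15 by edgeR, against 0.151 with the filter. Khsrp, at 0.01, fell below 0 without R/R replicate 3 (-0.027) or WT replicate 3 (-0.01), with a range of -0.027 to 0.035. The other 7 genes kept their direction in all 8 alternatives and all 6 left-out lungs.

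The 300 genes called became 541 with DESeq2, 630 with the exact test and 1109 without the filter, and 65 (without WT replicate 1) to 621 (without WT replicate 3) with a lung left out. The immediate early list, with 2 called, had 4 with DESeq2, 8 with the exact test, 15 without the filter and 1 to 8 over left-out lungs. Of the AU-rich mRNAs, with 3 called, 7 were called with the exact test, 9 without the filter and 0 to 6 over left-out lungs. Deadenylation, with 0, had 2 with DESeq2, 2 with the exact test, 1 without TMM, 2 without the filter and 0 to 2 over left-out lungs. The glucocorticoid list, with 0, had 2 with the exact test, 6 without the filter and 0 to 2 over left-out lungs, and the p38-MK2 list 1, 1 and 0 to 1. Without the filter, decapping and stress granule genes had 1 each. Ptgs2 missed the call with limma-voom (adjusted p = 0.0522), and single left-out lungs ended the call of Dll4 (R/R 1, R/R 3, WT 1 or WT 2) and Ptgs2 (R/R 2, R/R 3, WT 1 or WT 2). The cause of these changes was not tested.

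Lungs with the same replicate number showed no shared deviation across genes (correlations of -0.014, -0.0036 and -0.015). Lungs with different numbers had correlations of -0.022 to 0.032. With so few lungs per genotype, these values cannot decide whether the replicate numbers pair the lungs. With the number as a block, 446 genes were called, 286 of them among the 300, and 0 of the 8 genes (Zfp36 0.40, adjusted p = 0.0934). The lists then had 7 (immediate early), 5 (AU-rich mRNAs), 2 (deadenylation), 2 (glucocorticoid) and 1 (p38-MK2) called.

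With 3 lungs per genotype, the SE of the 8 log2 fold changes was 0.06 to 0.11, which limits what could be resolved. Per kilobase of the longest coding transcript, levels were 33.2 (Zfp36), 29.6 (Khsrp), 19.2 (Tial1), 15.2 (Tia1), 14.4 (Hnrnpd) and 12.0 (Elavl1) CPM.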
